A study of Homo sapiens with 8 samples.

Results

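*NQO1*, *GCLM*, *GCLC*, *TXNRD1*, *HMOX1*, *SLC7A11*, *AKR1C1*, *AKR1B10* and *SRXN1* are antioxidant genes that are widely used as targets of the transcription factor NRF2. They were chosen by symbol and were found by their Entrez gene numbers among the 25702 genes counted by RNA-seq, where all 9 of 9 were present. The cells were SUIT2, a human PDA cell line, carrying either a scramble shRNA (shScr, 4 libraries) or 1 of 2 shRNA constructs against *EN1* (shEN1 #1 and shEN1 #2, 2 libraries each). EN1 is a homeobox transcription factor, and the comparison asks how gene expression changes when it is depleted. The cells were grown in 2D and are 1 line, so every group shares its genotype, and in bulk RNA fewer cells of a kind and less RNA per cell cannot be told apart.

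NRF2, encoded by *NFE2L2*, is held at a low level by KEAP1, which hands it to a CUL3 ubiquitin ligase for degradation. Oxidants and electrophiles modify KEAP1, and the NRF2 that then accumulates pairs with small MAF proteins and binds the antioxidant response element, whose core BACH1 can occupy as a repressor. The target genes make glutathione, recycle thioredoxin, reduce quinones and carbonyls and break down heme. In pancreatic cancer the pathway is known for keeping reactive oxygen species low in tumour cells.

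The promoters of the glutathione and thioredoxin genes are shown because *GCLM* and *GCLC*, which encode the subunits of 1 enzyme, ran in opposite directions in the libraries that stood apart, whereas *GCLC* and *TXNRD1* followed each other closely. The sequences run 5′ to 3′ along the gene over 250 bases before and 50 after the transcription start in RefSeq's GRCh38.p14 annotation. Capitals mark the antioxidant response element core TGACNNNGC on either strand. The *GCLM* window is chr1:93909381-93909680, minus strand, the *GCLC* window chr6:53545052-53545351, minus strand, and the first *TXNRD1* window chr12:104215529-104215828, plus strand.
GCLM: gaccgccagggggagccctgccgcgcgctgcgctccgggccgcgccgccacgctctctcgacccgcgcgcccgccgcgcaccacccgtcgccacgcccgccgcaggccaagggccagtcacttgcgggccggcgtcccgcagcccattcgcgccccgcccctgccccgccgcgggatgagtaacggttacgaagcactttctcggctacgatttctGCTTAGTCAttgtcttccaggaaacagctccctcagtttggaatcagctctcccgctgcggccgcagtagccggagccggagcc
GCLC: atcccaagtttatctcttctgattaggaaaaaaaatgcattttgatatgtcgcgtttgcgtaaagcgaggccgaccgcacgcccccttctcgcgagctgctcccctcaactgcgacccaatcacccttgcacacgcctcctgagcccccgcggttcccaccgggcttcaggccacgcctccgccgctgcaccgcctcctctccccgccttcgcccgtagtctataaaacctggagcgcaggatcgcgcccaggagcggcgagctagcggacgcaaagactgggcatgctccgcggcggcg
TXNRD1: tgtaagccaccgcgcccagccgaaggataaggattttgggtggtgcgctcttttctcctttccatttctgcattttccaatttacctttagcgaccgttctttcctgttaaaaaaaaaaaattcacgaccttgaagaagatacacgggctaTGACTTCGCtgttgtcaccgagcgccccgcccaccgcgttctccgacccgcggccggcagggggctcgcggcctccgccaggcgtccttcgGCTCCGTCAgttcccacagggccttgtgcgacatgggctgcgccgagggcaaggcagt

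The *GCLM* window held 1 core, GCTTAGTCA read along the gene, whose first base lay at position -34 from the start. The first *TXNRD1* window held 2 cores, TGACTTCGC at -99 and GCTCCGTCA at -8, and a second *TXNRD1* window at chr12:104286782-104287081 held 1, GCTTTGTCA at -102. Entries were found for 6 of the 9 genes, with 7 windows in all. The core stood in 3 of these 7 windows, 2 of them of *TXNRD1*, and so in 2 of the 6 genes (33.3%). It stood in 4687 of 35116 promoters of the same length, or 13.3%. The windows of *GCLC*, *NQO1*, *SRXN1* and *AKR1C1* did not hold these letters, and sequence outside the windows was not searched for any gene. A match describes the sequence and is not a measured binding site, and its relation to the expression patterns was not tested. Entries for *HMOX1*, *SLC7A11* and *AKR1B10* were not used here.

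The libraries held between 33423590 and 37810604 counts. Of the 4 libraries labelled shEN1, only shEN1 #2 r1 had less of the targeted gene than the shScr mean, and the other 3 had more: 136, 167, 172 and 94 reads were counted for *EN1* under the shScr label, 206 and 184 under shEN1 #1 and 53 and 218 under shEN1 #2. In CPM, which scale counts to the TMM-normalized library size, it reached 4.01 ± 1.06 under the shScr label and 4.81 ± 2.37 under shEN1 (SD, n = 4 each). The study also measured *EN1* by RT-qPCR in SUIT2 with these kinds of shRNA, which was not analysed here, so the counts alone do not settle the labels. Each group is named by its label, with libraries written as shScr 1 or shEN1 #2 r1 for the label and replicate, and values are given in replicate order. The libraries labelled shScr 4 and shEN1 #2 r1 stood apart from the other 6 on the first principal component (44.4% of the variance), at 59.2 and 62.1 against -27.6 to -9.15. They were also closest to each other, although their labels differ. Summed epithelial markers ranged from 11110 to 17630 CPM, whereas *COL1A2*, *COL3A1*, *DCN*, *LUM*, *PTPRC*, *CD3E*, *CDH5*, *KDR* and *TEK* had 0 counts in all 8 libraries. Nothing in the labels states that replicates came from separate cultures, so p-values measure only the spread between these libraries.

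The 9 genes spanned a wide range of levels. Per kilobase of the MANE Select transcript, *TXNRD1* had a median over the 8 libraries of 199 CPM per kb (128 to 292) and *NQO1* of 154 CPM per kb (139 to 229), and these ranges overlapped. *SRXN1* followed at 33.7 CPM per kb (29.9 to 37.4), below every *NQO1* value and above every value of *GCLM* (median 12.4, range 8.60 to 21.9 CPM per kb). *GCLC* (12.3, range 7.84 to 16.6 CPM per kb) was not separated from *GCLM*. *AKR1B10* (3.66, range 0.126 to 7.36), *HMOX1* (3.32, range 1.67 to 4.01) and *SLC7A11* (3.08, range 0.938 to 8.38 CPM per kb) overlapped each other. *AKR1C1* had the lowest median, 0.395 CPM per kb (0.169 to 0.930). Its reference transcript is long (6543 bases), and a shorter gene model in the authors' counting would raise this value.

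**Figure D1:**
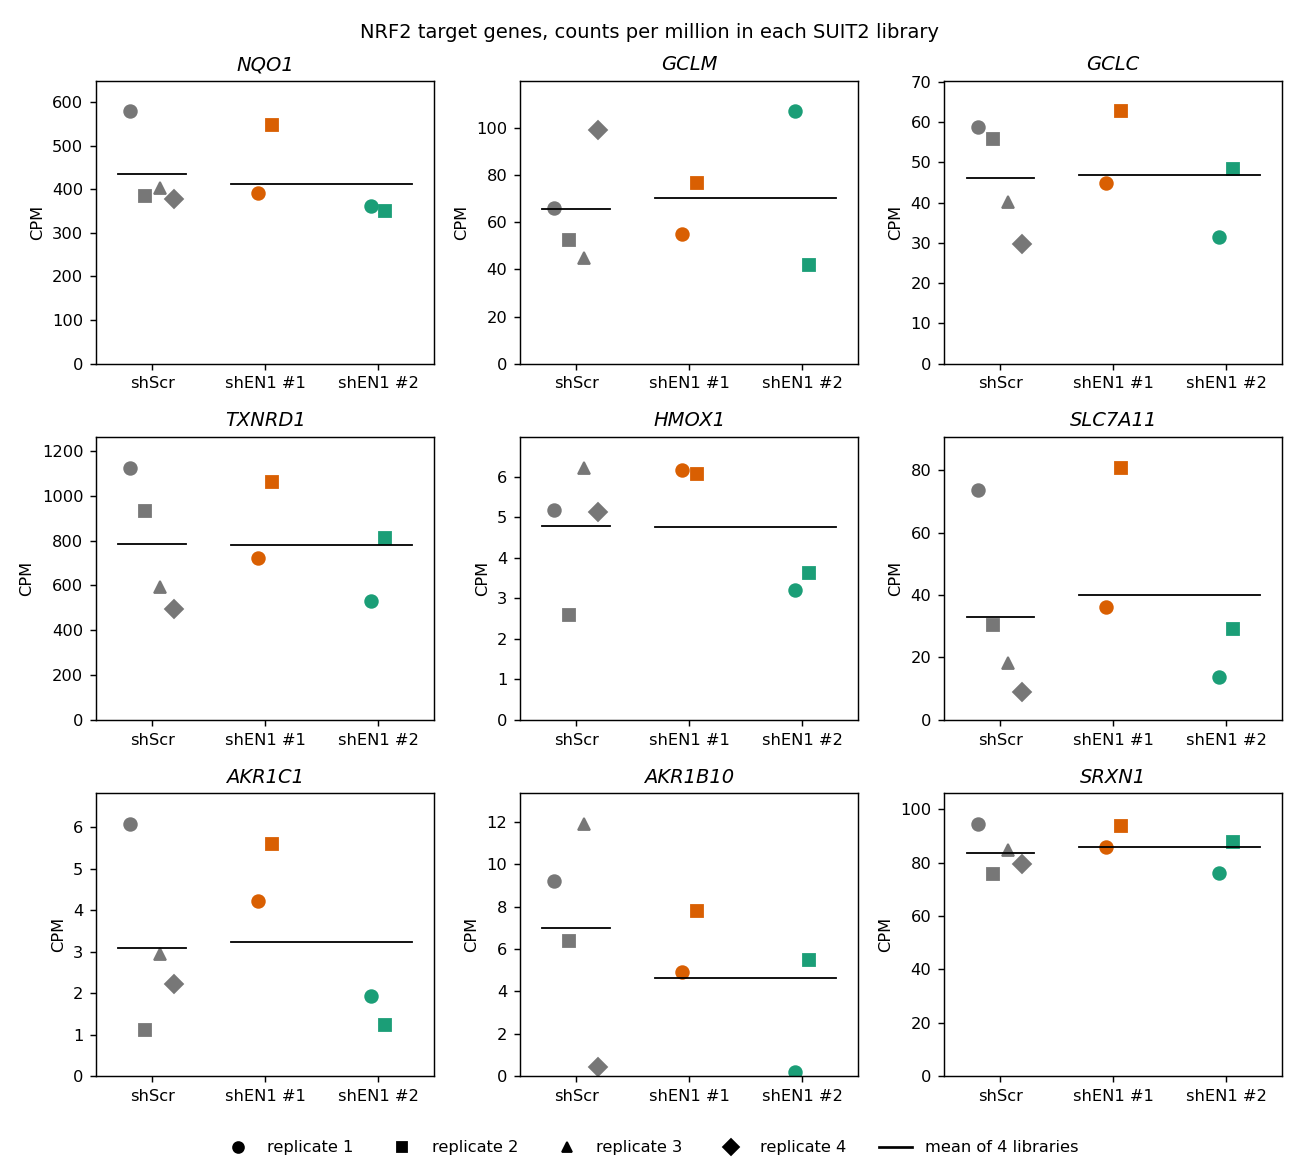
Expression of the 9 NRF2 target genes in CPM (linear axis from 0, 1 panel per gene) in each of the 8 libraries, by label; each point is 1 library, its shape gives the replicate, and each line is the mean of 4 libraries, for shEN1 over both constructs. The libraries labelled shScr and shEN1 overlapped for all 9 genes, and the share of all genes tested that overlap was not counted. *AKR1B10* was at 0.427 CPM in the library labelled shScr 4 and 0.203 CPM in that labelled shEN1 #2 r1 against 4.93 to 11.9 CPM in the others.

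Glutathione synthesis begins with cystine, which enters the cell through the SLC7A11 transporter. *SLC7A11* (Entrez 23657; GRCh37 chr4:139085251-139163503, minus strand) stood at 73.6, 30.5, 18.3 and 9.05 CPM under the shScr label, at 36.2 and 80.9 CPM under shEN1 #1 and at 13.9 and 28.97 CPM under shEN1 #2. The highest and lowest libraries differed 8.93-fold, and each label had libraries near both ends. Its means of 32.9 ± 28.5 CPM under the shScr label and 40.0 ± 28.8 CPM under shEN1 (SD, n = 4 each) gave a log2 fold change of 0.28 (SE 0.66, edgeR with Benjamini-Hochberg adjustment, adjusted p = 1.00), with a 95% interval of 0.430-fold to 3.44-fold. *SLC3A2*, which encodes the heavy chain that carries SLC7A11 to the membrane, stayed within 314 to 501 CPM. The ratio of the CPM of *SLC7A11* to that of *SLC3A2* therefore ranged from 0.0267 to 0.174, with its lowest value in the library labelled shScr 4 and its highest in the library labelled shEN1 #1 r2.

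Glutamate-cysteine ligase joins the cysteine to glutamate, with GCLC as the catalytic and GCLM as the modifier subunit. *GCLC* (Entrez 2729; GRCh37 chr6:53362139-53481768, minus strand) stood at 58.8, 55.7, 40.2 and 29.7 CPM under the shScr label, at 44.8 and 62.7 CPM under shEN1 #1 and at 31.4 and 48.4 CPM under shEN1 #2. *GCLM* (Entrez 2730; GRCh37 chr1:94350755-94375012, minus strand) stood at 66.2, 52.4, 44.6 and 99.1 CPM under the shScr label, at 55.1 and 76.6 CPM under shEN1 #1 and at 107 and 42.0 CPM under shEN1 #2. The libraries labelled shScr 4 and shEN1 #2 r1 thus had the lowest *GCLC* and the highest *GCLM*. In these libraries the ratio of *GCLC* to *GCLM* CPM was 0.299 and 0.293, whereas in the other 6 it lay between 0.814 and 1.15. *GCLC* averaged 46.1 ± 13.6 CPM under the shScr label and 46.8 ± 12.9 CPM under shEN1, and *GCLM* 65.6 ± 24.1 CPM and 70.2 ± 28.4 CPM (SD, n = 4 each). By label the ratio was 0.788 ± 0.335 (SD, n = 4) for shScr and 0.769 ± 0.354 (SD, n = 4) for shEN1, which overlapped. The log2 fold change was 0.022 for *GCLC* (SE 0.25, 95% interval 0.690-fold to 1.50-fold) and 0.10 for *GCLM* (SE 0.32, 95% interval 0.650-fold to 1.76-fold), both with an adjusted p of 1.00 by edgeR with Benjamini-Hochberg adjustment.

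Thioredoxin reductase 1 returns oxidized thioredoxin to its reduced form, and sulfiredoxin (SRXN1) repairs hyperoxidized peroxiredoxins. *TXNRD1* (Entrez 7296; GRCh37 chr12:104609557-104744085, plus strand) stood at 1126, 933, 594 and 493 CPM under the shScr label, at 723 and 1061 CPM under shEN1 #1 and at 531 and 812 CPM under shEN1 #2. The order of the libraries was nearly that of *GCLC*: after each gene was centred on its own mean, their log2 CPM differed by a root mean square of 0.0965 over the 8 libraries, the smallest of all pairs of the 9 genes. The means were 787 ± 294 CPM under the shScr label and 782 ± 220.1 CPM under shEN1 (SD, n = 4 each), a log2 fold change of -0.0088 (SE 0.28, 95% interval 0.640-fold to 1.54-fold, edgeR with Benjamini-Hochberg adjustment, adjusted p = 1.00). Its mitochondrial paralog *TXNRD2* ran the other way, being highest in the library labelled shScr 4 (77.8 CPM) and that labelled shEN1 #2 r1 (70.2 CPM), so the ratio of *TXNRD1* to *TXNRD2* CPM ranged from 6.33 to 21.6. The thioredoxin gene itself, *TXN*, was at 255 and 282 CPM in these libraries and between 392 and 485 CPM in the others.

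*SRXN1* (Entrez 140809; GRCh37 chr20:627259-633844, minus strand) was the steadiest of the 9 genes. It stood at 94.6, 75.7, 84.7 and 79.4 CPM under the shScr label, at 85.7 and 93.7 CPM under shEN1 #1 and at 76.1 and 87.9 CPM under shEN1 #2. The highest and lowest libraries differed by 1.25-fold. Its log2 range over the libraries stood at the 6.32 percentile of all genes tested. Its means were 83.6 ± 8.20 CPM under the shScr label and 85.8 ± 7.29 CPM under shEN1 (SD, n = 4 each). The log2 fold change was 0.04 (SE 0.11, edgeR with Benjamini-Hochberg adjustment, adjusted p = 1.00), and its 95% interval of 0.864-fold to 1.22-fold was the narrowest of the 9.

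NQO1 reduces quinones by transferring a pair of electrons, and HMOX1 opens the heme ring to release iron, carbon monoxide and biliverdin. *NQO1* (Entrez 1728; GRCh37 chr16:69740899-69760571, minus strand) stood at 578, 384, 402 and 378 CPM under the shScr label, at 391 and 546 CPM under shEN1 #1 and at 362 and 351 CPM under shEN1 #2. The libraries labelled shScr 1 and shEN1 #1 r2 were high and the other 6 lay close together, between 351 and 402 CPM. The means of 436 ± 95.8 CPM under the shScr label and 413 ± 90.6 CPM under shEN1 (SD, n = 4 each) gave a log2 fold change of -0.08 (SE 0.18, edgeR with Benjamini-Hochberg adjustment, adjusted p = 1.00), with a 95% interval of 0.713-fold to 1.26-fold.

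*HMOX1* (Entrez 3162; GRCh37 chr22:35776354-35790207, plus strand) was low, at 5.18, 2.59, 6.23 and 5.13 CPM under the shScr label, 6.16 and 6.06 CPM under shEN1 #1 and 3.20 and 3.63 CPM under shEN1 #2. Its highest libraries, shScr 3, shEN1 #1 r1 and shEN1 #1 r2, held 217, 220 and 206 counts, and of these shEN1 #1 r2 was also high for *NQO1*. The means were 4.78 ± 1.55 CPM under the shScr label and 4.76 ± 1.57 CPM under shEN1 (SD, n = 4 each), a log2 fold change of -0.0055 (SE 0.33, 95% interval 0.604-fold to 1.64-fold, edgeR with Benjamini-Hochberg adjustment, adjusted p = 1.00). The constitutive paralog *HMOX2* was far higher, at 71.3 to 108 CPM, and the ratio of *HMOX1* to *HMOX2* CPM ranged from 0.0267 to 0.0688.

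The aldo-keto reductases AKR1C1 and AKR1B10 reduce carbonyls, AKR1C1 with steroids and AKR1B10 with retinal and lipid aldehydes among their substrates. *AKR1B10* (Entrez 57016; GRCh37 chr7:134212319-134226164, plus strand) differed most between libraries of the 9 genes, by 58.6-fold, at the 99.9 percentile of all genes tested. It stood at 9.22, 6.36, 11.9 and 0.427 CPM under the shScr label, at 4.93 and 7.80 CPM under shEN1 #1 and at 0.203 and 5.50 CPM under shEN1 #2. The low values were 16 counts in the library labelled shScr 4 (exact Poisson 95% interval 0.244 to 0.694 CPM) and 8 counts in the library labelled shEN1 #2 r1 (0.0877 to 0.400 CPM), intervals that cover counting error only. Those libraries lay below the interval of every other library, 1 under each label. The means of 6.98 ± 4.92 CPM under the shScr label and 4.61 ± 3.19 CPM under shEN1 (SD, n = 4 each) gave a log2 fold change of -0.60 (SE 0.97, 95% interval 0.145-fold to 3.01-fold, edgeR with Benjamini-Hochberg adjustment, adjusted p = 1.00). Without that pair of libraries the log2 fold change was again -0.60, and *AKR1B10* was among 63 of 14263 genes with an unadjusted edgeR p below 0.05 (Benjamini-Hochberg adjusted p = 1.00), with the remaining libraries still overlapping. It was -0.25 without shScr 3 and shEN1 #1 r1 and -0.23 without all 4 of these libraries, both with an unadjusted edgeR p above 0.05.

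*AKR1C1* (Entrez 1645; GRCh37 chr10:5005445-5025475, plus strand) stood at 6.09, 1.11, 2.96 and 2.22 CPM under the shScr label, at 4.23 and 5.59 CPM under shEN1 #1 and at 1.93 and 1.23 CPM under shEN1 #2. Its lowest libraries were shScr 2 and shEN1 #2 r2, which were not low for *AKR1B10*. Its means were 3.09 ± 2.14 CPM under the shScr label and 3.24 ± 2.02 CPM under shEN1 (SD, n = 4 each), a log2 fold change of 0.07 (SE 0.58, 95% interval 0.432-fold to 2.56-fold, edgeR with Benjamini-Hochberg adjustment, adjusted p = 1.00). Of the 50-base windows of the *AKR1C1* transcript, 22.3% occur identically in *AKR1C2*, so reads could be split between them and both values are uncertain. The ratio of *AKR1C1* to *AKR1C2* CPM ranged from 0.696 to 1.84, and *AKR1C3*, with 2.08% of windows shared, was at 13.7 to 44.5 CPM. *AKR1B10* shares 11.3% of its windows with *AKR1B15*, which did not pass the filter, and 0 with *AKR1B1*.

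Over the 9 genes, 0 passed an adjusted p of 0.05 between the labels by edgeR with Benjamini-Hochberg adjustment. The background was the same, 0 of 14333 genes tested (0%). At an unadjusted edgeR p below 0.05 there were 0 of the 9 genes and 44 of all genes, or 0.307%. With no difference between labels, a well-fitted test would on average give a share near 0.05, and the share here was far lower. Why it was lower was not tested, and 1 labelling of these libraries cannot show how well the p-values are calibrated. High p-values here do not show that expression was unchanged. The median log2 fold change of the 9 genes was 0.022, with 5 above and 4 below 0, and that of all genes tested was -0.0028. The upper end of the 95% interval was at most 1.26-fold for *SRXN1* and *NQO1*, whereas for *AKR1C1*, *AKR1B10* and *SLC7A11* it reached 2.56-fold, 3.01-fold and 3.44-fold.

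**Figure D2:**
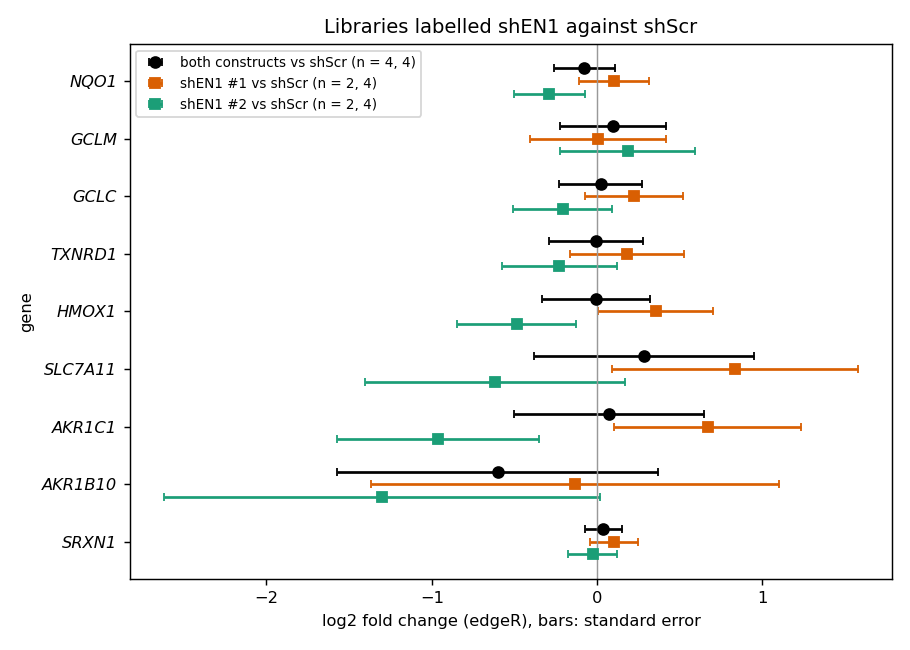
Log2 fold change of each of the 9 genes, with bars of 1 standard error from edgeR, for the libraries labelled shEN1 against those labelled shScr and for each construct against shScr. The bars of the pooled comparison (black) contained 0 for all 9 genes, and the widest was that of *AKR1B10*. Among the single constructs, the bars excluded 0 for both in *HMOX1* and *AKR1C1*, with opposite signs. They also excluded 0 for shEN1 #1 in *SLC7A11* and for shEN1 #2 in *NQO1*. None of these differences from shScr had an unadjusted edgeR p below 0.05.

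Each construct was also set against the shScr label in 1 fit of 3 groups. These comparisons share the 4 shScr libraries. For shEN1 #1 edgeR called 0 of 14333 genes at an adjusted p below 0.05 (0%) and 94 at an unadjusted p below 0.05 (0.656%), and for shEN1 #2 it called 0 (0%) and 43 (0.3%). None of the 9 genes was among either. Between the constructs, edgeR called 0 genes after adjustment (0%) and 153 at an unadjusted p below 0.05 (1.07%). *AKR1C1* was 1 of these, with means of 4.91 CPM for shEN1 #1 and 1.58 CPM for shEN1 #2 (n = 2 each), a log2 difference of -1.63 (SE 0.69, 95% interval -3.17 to -0.091, edgeR with Benjamini-Hochberg adjustment, adjusted p = 1.00).

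*HMOX1*, *SLC7A11* and *AKR1C1* had the libraries of shEN1 #1 above the shScr mean and those of shEN1 #2 below it, 2 of 2 in each case. They are named for this pattern after the values were seen; 3 of the 9 genes (33.3%) and 646 of all 14333 genes tested (4.51%) had it, which is a description with no test. The difference of shEN1 #2 from shEN1 #1 was -0.84 for *HMOX1* (SE 0.41, 95% interval -1.76 to 0.076) and -1.45 for *SLC7A11* (SE 0.90, 95% interval -3.53 to 0.63) on the log2 scale. Both had an adjusted p of 1.00 by edgeR with Benjamini-Hochberg adjustment. *SLC7A11* had 36.2 CPM in one library of shEN1 #1 and 80.9 CPM in the other, so the replicates of 1 construct differed by more than the shScr and shEN1 means did. For *SLC7A11* and *AKR1C1* the shScr mean, 32.9 and 3.09 CPM, lay above every shScr library but shScr 1, at 73.6 and 6.09 CPM. For *HMOX1*, *SLC7A11* and *AKR1C1*, both libraries of shEN1 #2 lay within the range of the shScr libraries.

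**Figure D3:**
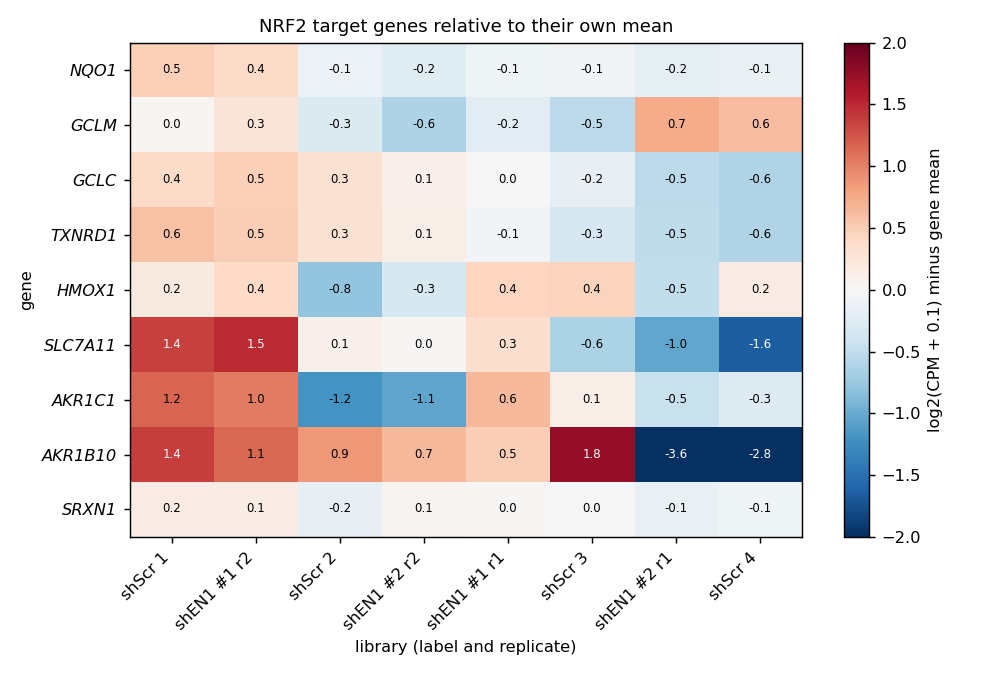
Log2(CPM + 0.1) of each of the 9 genes minus its own mean over the 8 libraries (colours end at 2, with values printed in the cells); the library order was chosen after the values were seen. The libraries labelled shScr 1 and shEN1 #1 r2, on the left, were high for most genes, and shEN1 #2 r1 and shScr 4, on the right, were low for *AKR1B10* and *SLC7A11* and high for *GCLM*.

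The differences between libraries crossed the labels. In 6 of the 9 genes (*NQO1*, *GCLC*, *TXNRD1*, *SLC7A11*, *AKR1C1* and *SRXN1*) the highest pair of libraries was shScr 1 with shEN1 #1 r2, a share of 66.7%. The same pair was highest in 15.6% of 96 other antioxidant and NRF2 pathway genes and in 5.65% of the 14333 genes tested. The pair was noticed after the values were seen, so these shares are a description with no test. Both libraries also stood at 1 end of the second principal component of all genes (17.5% of the variance), at -29.4 and -23.0. At the other end were shScr 3 at 39.3 and shEN1 #1 r1 at 30.6, and the rest lay between. The part of this component in the shares was not tested. The lowest pair was shScr 4 with shEN1 #2 r1 in 4 of the 9 genes (*GCLC*, *TXNRD1*, *SLC7A11* and *AKR1B10*), or 44.4%, against 34.4% of the pathway genes and 19.2% of all genes tested. *GCLM* was the 1 gene of the 9 for which that pair was highest, as it was for 18.9% of all genes tested.

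**Figure D4:**
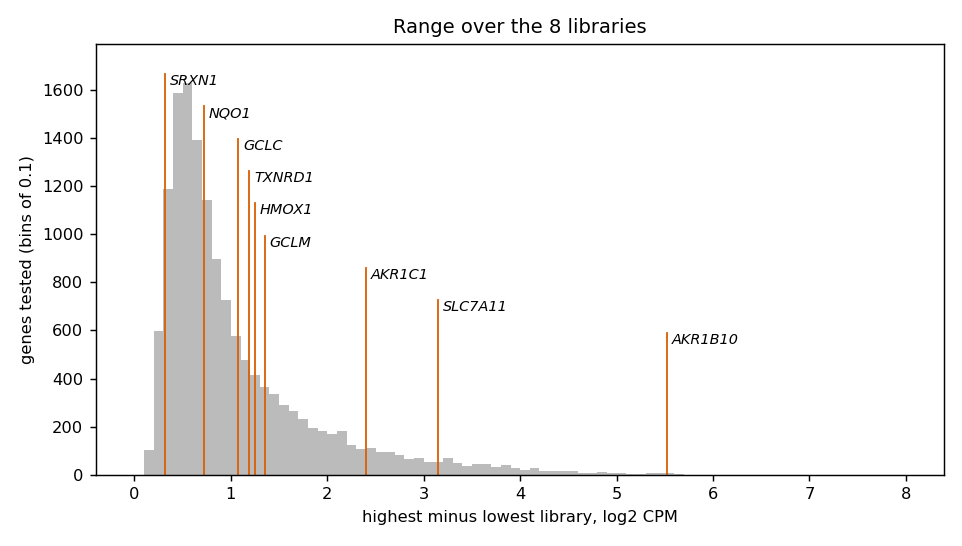
Distribution over the 14333 genes tested of the range across the 8 libraries on the log2 CPM scale, with the 9 genes marked. *SRXN1* lies at the narrow end (0.32) and *AKR1B10* at the wide end (5.53), and the median was 1.25 for the 9 genes and 0.757 for all genes tested.

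The genes whose pattern over the 8 libraries was most like that of *AKR1B10* were found by the smallest root mean square difference of centred log2 CPM. They were *AZGP1* (0.353), *GPX2* (0.399), *CST4* (0.577), *ANKS4B* (0.609) and *SLC37A2* (0.626). *GPX2*, a glutathione peroxidase of epithelia, was at 3.52 CPM in the library labelled shScr 4, at 1.83 CPM in that labelled shEN1 #2 r1 and at 28.8 to 45.5 CPM in the others. In the same libraries the epithelial keratin *KRT19* was at 400.3 and 321 CPM, against 831 to 1648 CPM in the others. *KRT19*, *EPCAM* and *CDH1*, 3 of the 5 epithelial markers, were lowest in this pair, and their part in the *AKR1B10* values was not tested.

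Of the other antioxidant and NRF2 pathway genes, 96 of 107 passed the filter. None was called between the labels, either after adjustment or at an unadjusted edgeR p below 0.05. Their log2 fold changes were above 0 in 27 and below 0 in 69, with a median of -0.04 and no test of this split. Over all genes tested 7006 were above and 7327 below 0, with a median of -0.0028. The median range over the 8 libraries on the log2 CPM scale was 0.55 for the NRF2 regulators and 1.25 for the 9 targets, with no test of the difference. *NFE2L2* itself stood at 108, 110.3, 88.2 and 88.8 CPM under the shScr label and at 93.8, 108, 96.7 and 99.2 CPM under shEN1, a range of 1.25-fold. *KEAP1* lay between 94.8 and 128 CPM. The repressor gene *BACH1* ranged more, from 27.6 CPM in the library labelled shScr 4 and 33.6 CPM in shEN1 #2 r1 to 79.1 CPM in shScr 2, and *MAFF*, a small MAF, from 17.6 to 46.8 CPM.

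The median log2 fold change was 0.0083 for 11 NRF2 regulators, -0.06 for 25 glutathione genes, -0.08 for 17 thioredoxin and peroxiredoxin genes and -0.0086 for 11 NADPH genes. It was -0.07 for 10 heme and iron genes, -0.07 for 18 carbonyl and quinone detoxification genes and -0.0050 for 4 superoxide and peroxide enzymes. Glutathione reductase (*GSR*), which regenerates glutathione from its oxidized form, is named after its values were seen and was lowest in the libraries labelled shScr 4 and shEN1 #2 r1, at 54.9 and 53.8 CPM, against 92.7 to 123 CPM in the others. The aldehyde dehydrogenase gene *ALDH3A1* shared its highest and lowest libraries with *SLC7A11*, with 164 CPM in the library labelled shScr 1, 172 CPM in shEN1 #1 r2, 15.1 CPM in shScr 4, 12.6 CPM in shEN1 #2 r1 and 21.3 to 68.1 CPM in the rest. *FTH1*, the ferritin heavy chain, was likewise highest in the first pair, at 3102 and 3530 CPM.

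**Figure D5:**
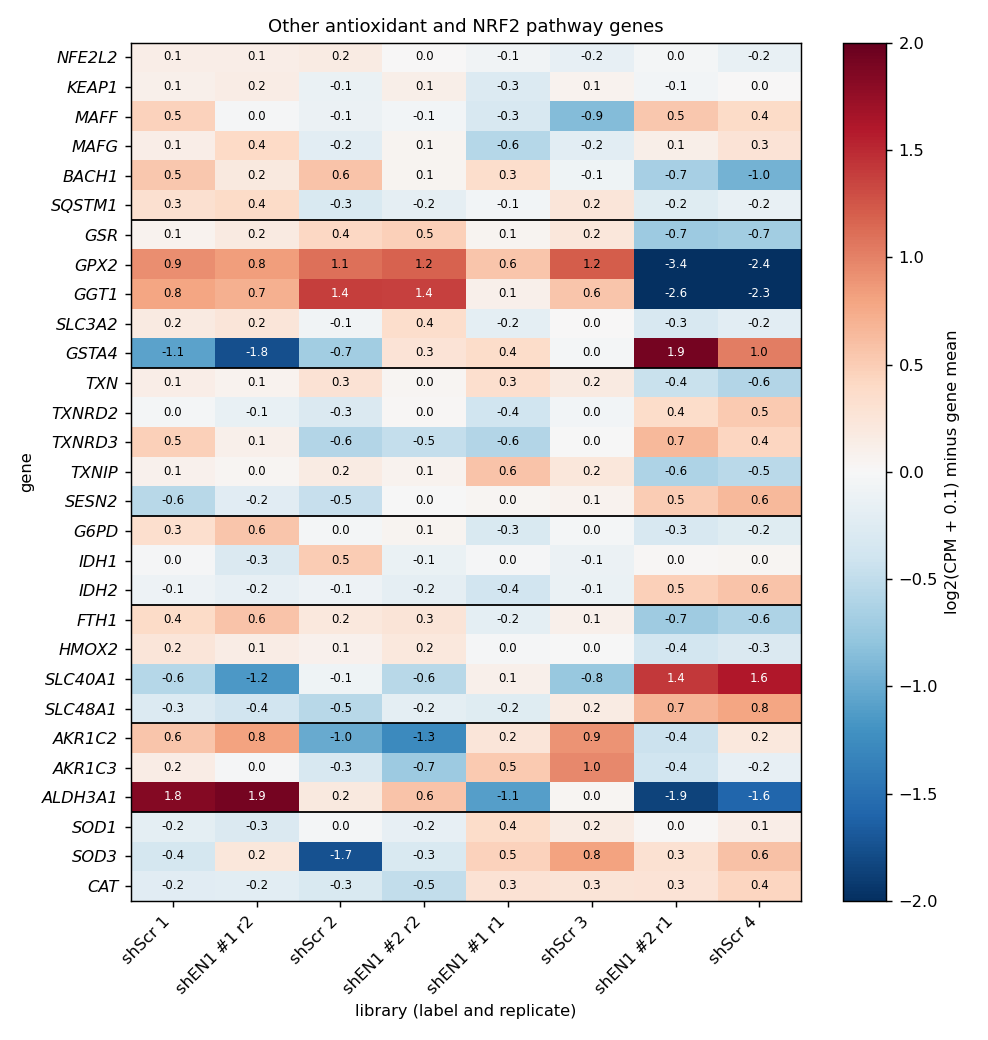
Log2(CPM + 0.1) minus the gene's own mean over the 8 libraries for regulators, partners and paralogs of the 9 genes and the widest-ranging genes of each list (colours end at 2); libraries are in the same order as for the 9 genes. *NFE2L2* and *KEAP1* are nearly even across libraries, and *GPX2* and *GGT1* are low in the libraries labelled shScr 4 and shEN1 #2 r1.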

How the data were processed

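RNA-seq was analysed in 8 SUIT2 libraries, grouped by their labels. Raw read counts for each gene, as whole numbers, were deposited by the authors. The paper's methods name hg19, HISAT2 and featureCounts, whereas the submitters' processing notes list mm9 as the build. Annotation, strand setting and versions are not given in the sources used here, so overlapping or antisense genes could share reads. Of 25702 Entrez identifiers, 23696 had a symbol in RefSeq's table (GRCh38.p14); the other 2006 held 0.214% to 0.257% of a library's counts. Gene positions and MANE Select lengths came from GENCODE v44 lifted to GRCh37.

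Genes were filtered with filterByExpr (minimum count 10, 14333 kept), normalized by TMM and tested with edgeR 4.0.16 (quasi-likelihood, robust) in R 4.3.3, with Benjamini-Hochberg adjustment over all genes tested and a threshold of 0.05. The constructs were pooled, and then separated in 1 fit of 3 groups. Standard errors were derived from the log2 fold change and the square root of F. CPM are scaled to the TMM-normalized library size. Totals differed by at most 1.13-fold. Alternatives were other size factors, library size only, DESeq2 1.42.0, limma-voom (limma 3.58.1), other filters, a replicate block and libraries left out. The script was tested on simulated data. The genes, their lists and the rule for naming others (partners, paralogs and regulators, the 3 widest-ranging of each list, and the 5 most like the member with the largest range) were chosen with earlier results of these data known.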

Additional observations from a re-analysis of the deposited data

Results flagged for a closer look

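*NQO1* in the library labelled shScr 1 stood far from the other libraries of its label, at 578 CPM against 378 to 402 CPM. The gap to the nearest of them was 0.883 of the group's whole range, above Dixon's 95% critical value for 4 samples. Over the 18 groups examined (9 genes under 2 labels) 1 was past the critical value, and chance alone gives about 0.9. The library labelled shEN1 #1 r2 had 546 CPM of *NQO1*, so a value of this size was seen under each label.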

How the results depend on the processing

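None of the 9 genes was called in any of the alternatives listed under processing, which gave 161 values of their log2 fold changes with a lowest adjusted p of 0.768; 125 kept the sign and 36 did not. Over all genes, the count of genes called between the labels was 0 and became 2 with DESeq2, 1 without the libraries labelled shScr 4 and shEN1 #2 r1, 1 with shScr 3 and shEN1 #1 r1 also left out, and 0 to 1 when single libraries were left out (1 without shScr 4). For shEN1 #1 against shScr it became 3 with DESeq2. These calls were *VAMP7* in all, an unnamed gene (Entrez 100507676) in both DESeq2 fits and *EIF3CL* in the last, none of them an antioxidant gene. The fit without shScr 3, shScr 4, shEN1 #1 r1 and shEN1 #2 r1 had 1512 of 14273 genes with an unadjusted edgeR p below 0.05. The main fit had 44 of 14333. None of the 9 genes was among the 1512. The cause was not tested for any of these results.

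The replicate numbers were checked by correlating the libraries' deviations from their group means on the log2 CPM scale. Between same-numbered libraries of different groups the correlations lay between -0.33 and 0.44. With 2 libraries per construct, these deviations mirror each other, so the values cannot decide whether the numbers pair the libraries. With the replicate number as a block, in the 6 libraries numbered 1 or 2, 1 gene was called and 278 had an unadjusted edgeR p below 0.05. The log2 fold change then changed sign for *GCLC* (-0.33), *HMOX1* (0.34) and *SLC7A11* (-0.52).

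Signs also changed with limma-voom for *TXNRD1* (0.026) and *HMOX1* (0.0051), and without a filter for *HMOX1* (0.0065). Without shScr 4 and shEN1 #2 r1, *HMOX1* was at 0.18. Without shScr 3 and shEN1 #1 r1, *GCLC* was at -0.018 and *AKR1C1* at -0.10. Without all 4, *GCLM* was at -0.00064, *GCLC* at -0.045, *HMOX1* at 0.32 and *AKR1C1* at -0.069. When single libraries were left out, the log2 fold change ranged from -0.99 to -0.20 for *AKR1B10*, -0.32 to 0.63 for *AKR1C1*, -0.15 to 0.17 for *GCLC*, -0.18 to 0.37 for *GCLM*, -0.21 to 0.15 for *HMOX1*, -0.24 to 0.089 for *NQO1*, -0.32 to 1.05 for *SLC7A11*, -0.0061 to 0.10 for *SRXN1* and -0.19 to 0.22 for *TXNRD1*. With at least 10 counts required in every library, *AKR1B10* was not tested. Depth limits *AKR1B10* and *AKR1C1* most, whose lowest libraries held 8 and 40 counts.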
